A study of Mus musculus with 27 samples.

Results

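Laminins and nidogens are the glycoproteins that give a basement membrane its polymer and its cross-links. The genes described here are 10 of them (Lama2, Lama3, Lama4, Lama5, Lamb1, Lamb2, Lamb3, Lamc1, Nid1 and Nid2), chosen by name among the 53379 genes of the count table. Of these 10, 9 were among the 18758 genes with enough counts to be tested, and Lama3 was not. RNA came from hepatic stellate cells (HSCs), the pericytes of the liver sinusoid that store retinoid and make much of the scar matrix in fibrosis. The HSCs of male Balb/c mice were sorted by ultraviolet fluorescence after liver perfusion and lysed without culture.

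Liver injury was made with carbon tetrachloride (CCl4), a toxin that hepatocytes activate, given intraperitoneally in mineral oil at 0.5 µL per g of body weight. In the acute groups, mice of 10 to 12 weeks received 1 injection and were collected 24 h later (n = 3), 72 h later (n = 4) or 7 d later (n = 4). In the chronic groups, mice of 8 to 10 weeks received semi-weekly injections for 4 weeks and were collected 24 h, 72 h or 14 d after the last one (n = 4 each). Healthy mice of 10 to 12 weeks (n = 4) received nothing, so no group carried the oil or the injection alone. The chronic groups also differ from the healthy group in the age the study states. That age is given for the mice injected over 4 weeks, and their age at collection is not stated. No transgene or deletion was used, and all groups were of 1 strain and 1 sex. The sort depends on retinoid, so it selects HSCs that still fluoresced and passes over those that did not. Each library is described as a separate repeat, and coordinates are on GRCm38.

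A laminin is a trimer of 1 alpha, 1 beta and 1 gamma chain. The trimers assemble inside the cell, polymerise at the cell surface and bind integrins and dystroglycan through the end of the alpha chain. Nidogens bind the gamma 1 chain and collagen IV and so link the laminin network to the collagen network. The sinusoid of the healthy liver has no continuous basement membrane, and in fibrosis one can form there, a change known as capillarisation.

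The libraries held 6.31 M to 13.1 M counts. There were 8 libraries of lower depth (under 9 M), namely replicates 1 and 2 at chronic 24 h and at chronic 72 h and the 4 at chronic 14 d, and 19 of higher depth. All 12 HSC markers checked had counts in every group, and their summed level was 24654 normalised counts (CPM, counts scaled to a common library total) in healthy and 9113 to 15605 CPM in the injured groups. Markers of other cells were present too. Over the groups, the mean summed level of 8 macrophage markers ran from 163 CPM in acute 24 h to 6703 CPM in acute 7 d, that of 12 endothelial markers from 110.3 CPM in acute 72 h to 560.5 CPM in chronic 14 d, and that of 8 hepatocyte markers from 131 CPM in acute 24 h to 2446 CPM in chronic 14 d. In bulk RNA, fewer cells of a type and less RNA per cell cannot be told apart.

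Per kilobase (kb) of exon, the unit in which levels of different genes can be set side by side, Nid1 was the highest of the 10 genes in healthy HSCs at 158 ± 13.5 CPM per kb (SD, n = 4). Lamc1 (61.6 ± 8.39) and Lamb1 (58.1 ± 3.63) came next and did not differ beyond their spread. Nid2 (41.3 ± 5.26) and Lamb2 (19.5 ± 5.86) followed. The alpha chains lay far below the beta 1 and gamma 1 chains, with Lama2 at 1.62 ± 0.843, Lama5 at 0.633 ± 0.353 and Lama4 at 0.321 ± 0.275 CPM per kb. Lamb3 (0.392 ± 0.0707) lay between Lama5 and Lama4, and from Lama2 down to Lama4 each gene overlapped its neighbour in this order. Lama3 was the lowest at 0.0192 ± 0.0120 CPM per kb. The other neighbours (Nid1 and Lamc1, Lamb1 and Nid2, Nid2 and Lamb2, Lamb2 and Lama2, Lama4 and Lama3) did not overlap in the 4 healthy libraries.

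A gene was called when its Benjamini-Hochberg adjusted p in edgeR was below 0.05 and its change was above 2-fold. Against healthy, the calls fell on 3 of the 9 genes tested. Lama5 was higher at acute 24 h, acute 72 h and chronic 24 h. Lamb3 was lower at acute 24 h and higher at acute 7 d and at all chronic times. Lama4 was lower at acute 24 h. The count was 3 of 9 at acute 24 h (1 higher, 2 lower), where 22% of all genes tested were called (9.41% higher and 12.5% lower). It was 1 of 9, higher, at acute 72 h, where 12.6% of all genes were called (8.23% higher and 4.33% lower), and 1 of 9, higher, at acute 7 d, where 14.9% were (9.23% higher and 5.64% lower). It was 2 of 9, both higher, at chronic 24 h, where 19.3% of all genes were called (11.2% higher and 8.11% lower). It was 1 of 9, higher, at chronic 72 h, where 12.1% were (7.88% higher and 4.2% lower), and 1 of 9, higher, at chronic 14 d, where 5.72% were (4.55% higher and 1.17% lower). On so few genes a share near that of all genes is no result about the group as a whole, and what follows concerns which genes they were. The median log2 fold change of the 9 was -0.65 at acute 24 h, where that of all genes was -0.12, and between -0.20 and 0.27 in the other comparisons with healthy.

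**Figure D1:**
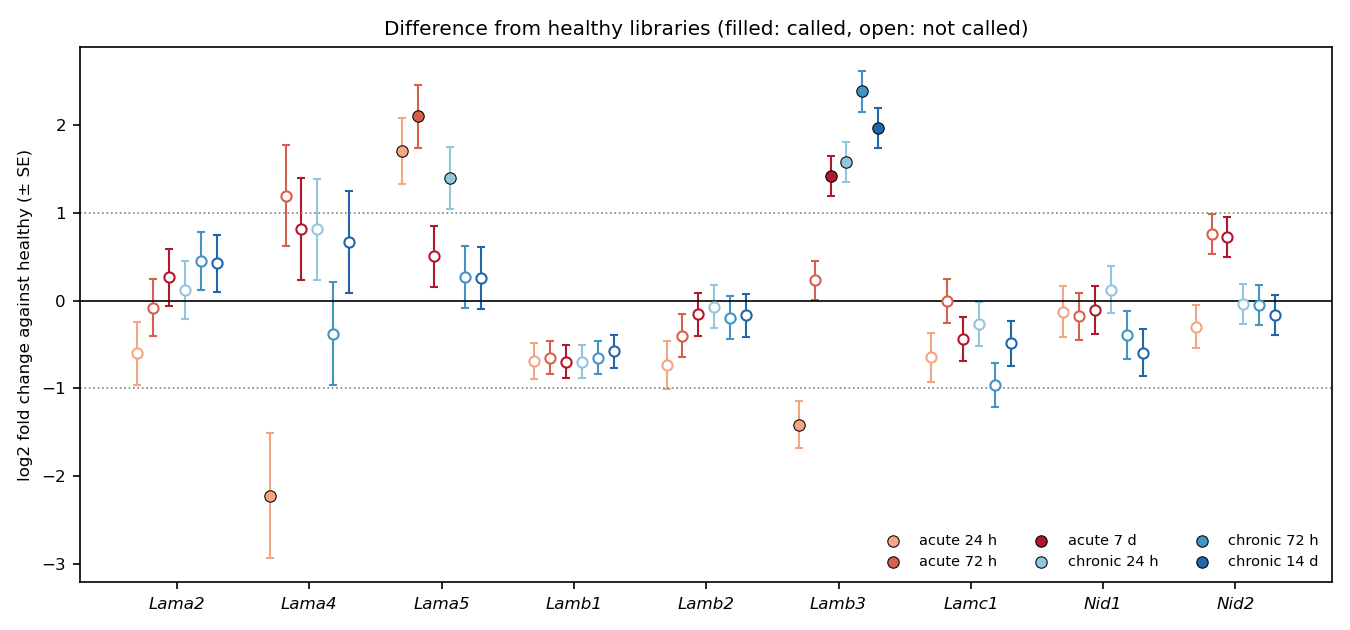
Log2 fold change against healthy (vertical axis, ± SE from edgeR) of the 9 genes tested, for the 6 injured groups in colour. Filled points were called and open points were not, and dotted lines mark a 2-fold change. Lama5 was called in 3 groups and Lamb3 in 5, while all 6 points of Lamb1 lie between -0.69 and -0.58.

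The sequences before the starts of Lama5, Lamb3 and Lamb1 are given because the first pair carried most of the calls and Lamb1 had the steadiest difference from healthy. They come from RefSeq on GRCm38.p6, whose promoter table matched 6 of the 10 genes, and cover up to 250 bases before the start, cut short of any base that GENCODE M21 places in an exon of the gene. Capitals mark matches, on either strand, to 4 motifs searched, the AP-1 site (TGANTCA), the TEAD site (GGAATG), the GC box (GGGCGG) and the TATA box (TATAAA). In the windows printed only the GC box matched, in those of Lama5 and Lamb1, so no match overlapped one of another motif.
Lama5, chr2:180225860-180226109, minus strand: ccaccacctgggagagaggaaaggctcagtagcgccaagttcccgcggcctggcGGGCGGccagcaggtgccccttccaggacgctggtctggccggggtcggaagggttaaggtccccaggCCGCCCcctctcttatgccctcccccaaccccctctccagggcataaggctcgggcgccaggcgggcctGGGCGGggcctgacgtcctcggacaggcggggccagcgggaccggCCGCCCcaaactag
Lamb1, chr12:31265043-31265233, plus strand: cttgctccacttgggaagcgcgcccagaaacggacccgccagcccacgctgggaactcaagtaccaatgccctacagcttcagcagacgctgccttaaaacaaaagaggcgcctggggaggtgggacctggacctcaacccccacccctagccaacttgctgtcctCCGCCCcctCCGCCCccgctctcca
Lamb3, chr1:193301744-193301992, plus strand: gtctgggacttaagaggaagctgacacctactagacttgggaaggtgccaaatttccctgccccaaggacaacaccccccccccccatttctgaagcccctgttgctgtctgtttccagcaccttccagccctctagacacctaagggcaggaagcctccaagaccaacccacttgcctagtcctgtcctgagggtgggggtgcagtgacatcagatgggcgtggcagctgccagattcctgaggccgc
The Lama5 window held 4 GC boxes and the Lamb1 window 2, and 32.7% of all 32851 promoter windows of that length held at least 1. RefSeq gives Lamb3 2 starts. The window printed, that of the upstream start, held none of the 4 motifs, and that of the downstream start, which is not printed because an exon divides it, held 1 TEAD match. Both lie inside the gene as GENCODE M21 draws it. The share of G and C over the 250 bases was 72.4% for Lama5, 62.0% for Lamb1 and 58.8% and 61.2% for the upstream and downstream windows of Lamb3, where the median of all windows was 52.4%. A match of letters is not a bound site, and an absent match says nothing of the factor.

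Of the 4 alpha chain genes among the 10, Lama5 was called in 3 comparisons with healthy, Lama4 in 1, and Lama2 in none. Its product, laminin alpha 5, is the alpha chain of trimers found in many mature epithelial and vascular basement membranes. Lama5 (ENSMUSG00000015647, chromosome 2, 180176373 to 180225859) had 4.17, 11.4, 9.86 and 3.38 CPM in the healthy libraries. At acute 24 h it had 25.2, 21.2 and 24.1 CPM and at acute 72 h 33.8, 28.7, 33.2 and 27.5 CPM. All acute libraries of these times lay above all healthy ones. The log2 fold change was 1.70 at acute 24 h (SE 0.37, adjusted p 0.00104, edgeR) and 2.10 at acute 72 h (SE 0.36, adjusted p 0.000172, edgeR), and the step between these times was not called (0.39, SE 0.37, adjusted p 0.5, edgeR). By acute 7 d the values were 12.1, 12.1, 8.69 and 7.89 CPM, overlapping the healthy range.

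After the chronic course, Lama5 had 13.9, 13.0, 25.3 and 23.5 CPM at 24 h, 7.73, 4.71, 15.4 and 6.50 CPM at 72 h and 8.64, 10.9, 9.02 and 5.88 CPM at 14 d. Every chronic 24 h library lay above the healthy range, and the later times overlapped it. The log2 fold change at chronic 24 h was 1.40 (SE 0.35, adjusted p 0.00387, edgeR), with an adjusted p of 0.0526 when only these groups were fitted. The lower-depth pair of chronic 24 h libraries (replicates 1 and 2) had the lower values and the higher-depth pair the higher ones, and with libraries of higher depth alone the log2 fold change was 1.76 (adjusted p 0.00344, edgeR). The summed level of endothelial markers, a cell type that also makes laminin alpha 5, was 184 to 535 CPM in healthy, 101 to 121 CPM in acute 24 h, 70.1 to 175 CPM in acute 72 h and 84.0 to 221 CPM in chronic 24 h libraries. Vascular smooth muscle markers (8) summed to 578 to 735 CPM in healthy and 927 to 993 CPM in acute 24 h libraries. They summed to 258 to 527 CPM in acute 72 h and 426 to 804 CPM in chronic 24 h libraries. Of the 7 tested, 2 were higher at acute 24 h and 2 higher and 1 lower at acute 72 h. At chronic 24 h, 4 were higher. Of all genes 9.41%, 8.23% and 11.2% were higher at these times, and 12.5%, 4.33% and 8.11% lower. The study describes activated HSCs as contractile themselves, and bulk RNA cannot tell their transcripts from those of smooth muscle. The part of either cell type in the level of Lama5 was not tested.

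**Figure D2:**
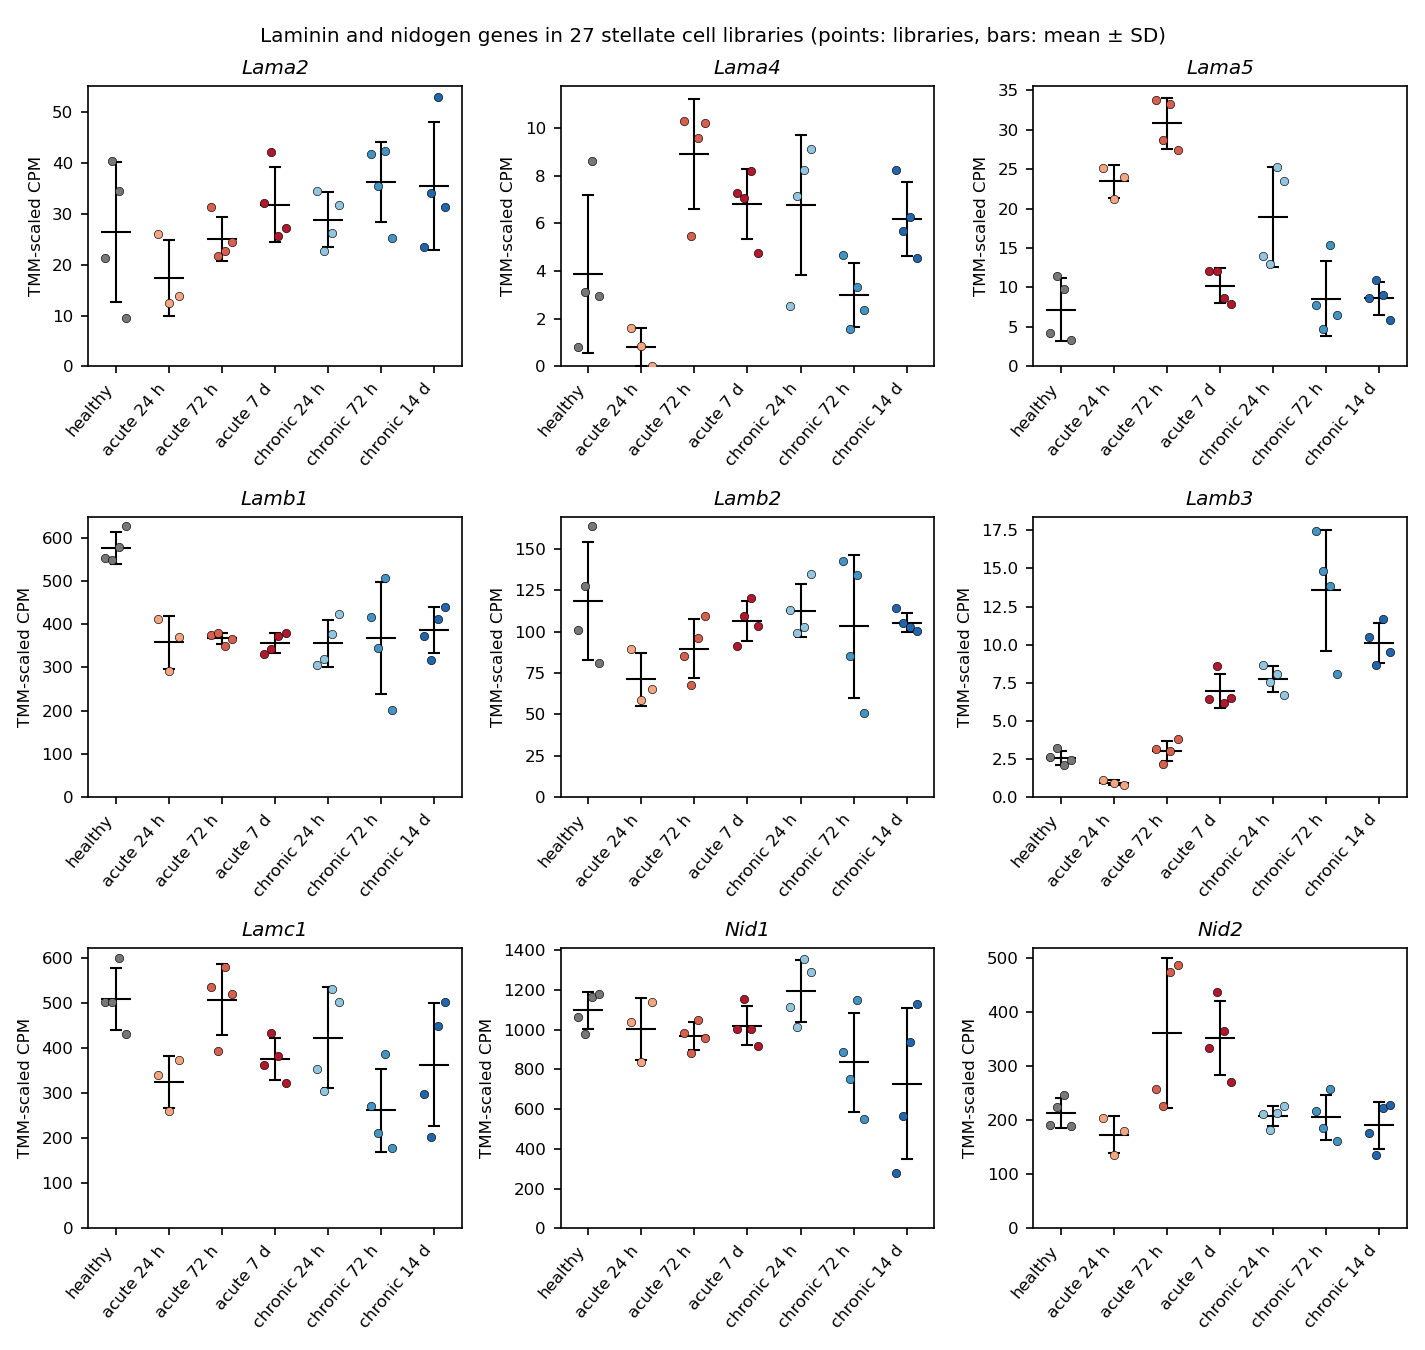
TMM-scaled CPM (vertical axis, starting at 0 in each panel) of the 9 genes tested in the 27 libraries, by group (horizontal axis). Points are libraries and bars the mean ± SD. Lama5 has its highest means at acute 24 h and 72 h, Lamb3 at chronic 72 h, and no injured library reaches the healthy range of Lamb1.

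Lama4 encodes the alpha chain of vessel and mesenchymal laminins. Lama4 (ENSMUSG00000019846, chromosome 10, 38965515 to 39110188) was low throughout, with 9, 32, 102 and 34 counts in the healthy libraries, or 0.816, 3.12, 8.59 and 2.95 CPM. At acute 24 h it had 18, 10 and 0 counts (1.60, 0.868 and 0 CPM). At acute 72 h the values were 10.3, 5.45, 9.59 and 10.2 CPM and at acute 7 d 7.28, 7.05, 8.21 and 4.75 CPM. Acute 24 h libraries overlapped the lowest healthy one, whereas every acute 72 h library lay above every acute 24 h library. The call of Lama4 as lower at acute 24 h (-2.22, SE 0.71, adjusted p 0.0178, edgeR) was lost without acute 24 h replicate 2 (-2.26, adjusted p 0.053), acute 24 h replicate 3 (-1.64, 0.0625) or healthy replicate 3 (-1.47, 0.108).

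In the chronic course Lama4 had 2.55, 7.14, 8.24 and 9.12 CPM at 24 h, 4.67, 1.57, 3.35 and 2.35 CPM at 72 h and 8.24, 5.66, 6.25 and 4.55 CPM at 14 d. None of these groups was called against healthy, and all overlapped the wide healthy range. The log2 fold change at acute 72 h against healthy was 1.19 (adjusted p 0.147, edgeR), and without healthy replicate 3, the highest healthy library, it was 1.95 (adjusted p 0.0292, edgeR).

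Lama2 encodes the alpha chain of muscle and nerve laminins, and its loss causes a congenital muscular dystrophy. Lama2 (ENSMUSG00000019899, chromosome 10, 26980036 to 27619758) was not called in any of the 9 comparisons. It had 21.4, 40.4, 34.6 and 9.62 CPM in healthy libraries, and group means ran from 17.5 ± 7.48 CPM at acute 24 h (SD, n = 3) to 36.3 ± 7.92 CPM at chronic 72 h (SD, n = 4). The healthy libraries alone spanned most of that range, with replicate 4 the lowest. Healthy replicate 4 was also the lowest healthy library for Lama5 and for Lamb2. Part of the exons of Lama2 (631 bases) is shared with Gm48084 on the opposite strand, and counting by strand is not stated, so their reads cannot be told apart.

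Lama3 encodes the alpha chain of the epithelial laminin that anchors the epidermis. Lama3 (ENSMUSG00000024421) had 0 to 5 counts in every library, with 2, 4, 2 and 1 in healthy and 0, 1, 0 and 0 in chronic 24 h libraries. With so few counts it was left out of the fit, and no difference was tested. The chronic 14 d libraries had 2, 4, 5 and 1 counts.

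Another alpha chain, Lama1, which is not among the 10 genes, made up most of the alpha chain level in healthy HSCs. Lama1 (ENSMUSG00000032796, chromosome 17, 67697259 to 67822647), the alpha chain of embryonic and some epithelial laminins, had 134, 187, 179.8 and 57.6 CPM in healthy libraries and 11.6, 10.3 and 18.1 CPM at acute 24 h. It was called lower than in healthy in all 6 injured groups, of which acute 72 h and chronic 14 d overlapped the healthy range, from -3.39 on the log2 scale at acute 24 h (adjusted p 1.10e-06, edgeR) to -1.26 at acute 72 h (adjusted p 0.0072, edgeR). Of the alpha chain level per kb of exon, Lama1 held 84.9% ± 2.55 (SD, n = 4) in healthy, 30.1% ± 7.92 (n = 3) in acute 24 h and 36.1% ± 6.82 (n = 4) in chronic 24 h libraries.

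The shares of the other alpha chains shifted accordingly, since the shares in a library sum to 100%. Lama5 held 3.69% ± 0.916 in healthy, 45.3% ± 3.58 in acute 24 h, 25.3% ± 4.62 in acute 72 h and 26.3% ± 5.99 in chronic 24 h libraries. Lama2 held 9.23% ± 1.13 in healthy and 38.4% ± 4.23 in chronic 72 h libraries, although its own level was not called. Lama1 held 44.6% in chronic 72 h libraries. These shares depend on the gene length used. With the longest transcript as the length, Lama2 held 49.4% and Lama1 34.5% in chronic 72 h libraries. In chronic 24 h libraries they then held 37.2% and 28.4%, where per kb of exon Lama2 held 28.4% and Lama1 36.1%. At chronic 14 d, Lama1 held 61.0% ± 4.18, the injured group nearest to healthy. The summed alpha chain level was 17.0 CPM per kb in healthy and 4.59 CPM per kb in acute 24 h libraries.

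**Figure D3:**
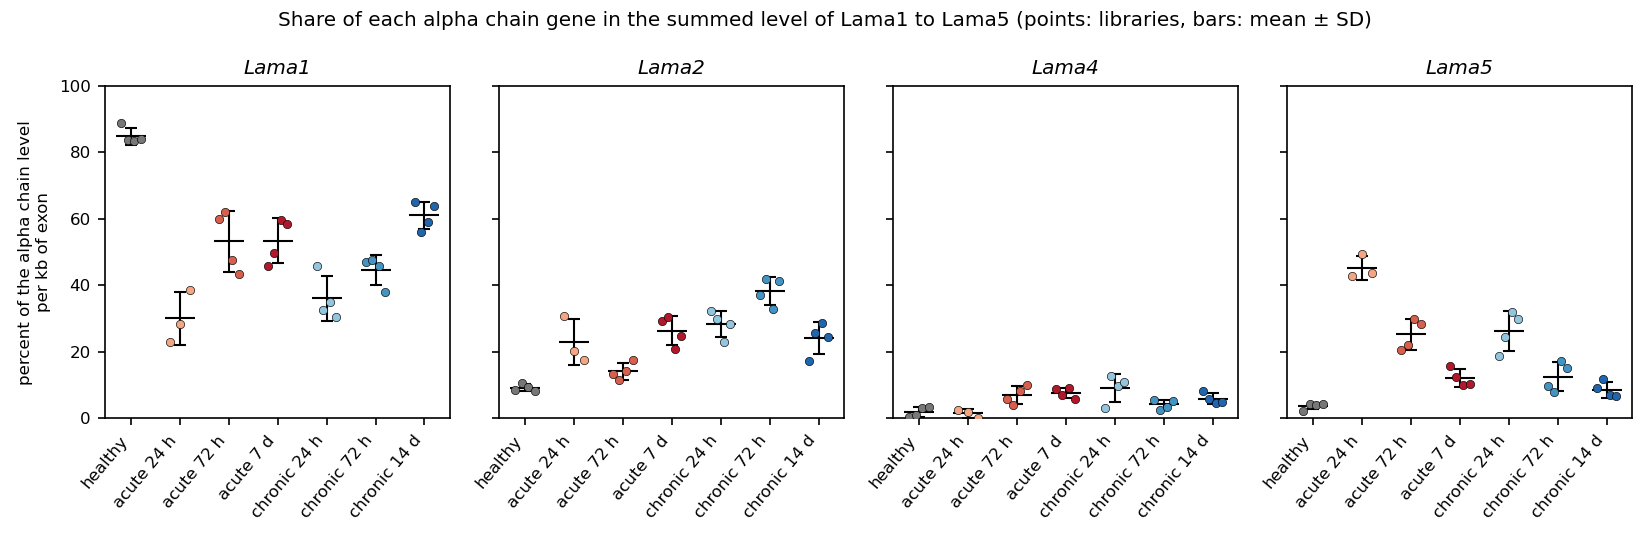
Share of each alpha chain gene (percent, vertical axis from 0 to 100) in the summed level per kb of exon of Lama1 to Lama5, by group (horizontal axis). Points are libraries and bars the mean ± SD. Lama3 is left out because its share stayed under 1% in every library. Lama1 goes from 84.9% in healthy to 30.1% in acute 24 h libraries while Lama5 goes from 3.69% to 45.3%.

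Among the beta chains, Lamb1 and Lamb3 both lay below healthy at acute 24 h. They moved apart at acute 7 d and in the chronic groups. Lamb1 encodes the beta 1 chain, the most widely used beta chain of early and mesenchymal laminins. Lamb1 (ENSMUSG00000002900, chromosome 12, 31265234 to 31329644) had 553, 547, 578 and 626 CPM in healthy libraries. The acute libraries lay between 292 CPM (24 h, replicate 2) and 412 CPM (24 h, replicate 1). The chronic libraries lay between 201 CPM (72 h, replicate 4) and 507 CPM (72 h, replicate 3). Every injured library was thus below every healthy one, in all 6 groups.

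The level of Lamb1 against healthy was 0.618 to 0.669 times, a change that did not pass 2-fold and was therefore not called. Its adjusted p (edgeR) was below 0.05 in 5 of the 6 comparisons, from 0.00659 at chronic 24 h to 0.0161 at chronic 72 h, and 0.056 at chronic 14 d. All 6 comparisons share the same 4 healthy libraries. With libraries of higher depth alone, Lamb1 differed from healthy by -0.53 on the log2 scale (adjusted p 0.134, edgeR) at chronic 24 h and -0.70 (adjusted p 0.0729, edgeR) at chronic 72 h.

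Lamb2 encodes the beta 2 chain of synaptic, vascular and kidney laminins. Lamb2 (ENSMUSG00000052911, chromosome 9, 108479736 to 108490530) had 101, 128, 164 and 81.2 CPM in healthy and 89.3, 58.9 and 65.1 CPM in acute 24 h libraries, which overlapped. The difference did not pass 2-fold (-0.73, SE 0.27, adjusted p 0.0373, edgeR), and the other 5 groups had adjusted p from 0.263 to 0.854 against healthy. Per kb of exon, the ratio of Lamb1 to Lamb2 was 3.22 ± 1.12 (SD, n = 4) in healthy and 1.95 ± 0.245 in chronic 24 h libraries, with healthy values from 2.17 to 4.73.

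Lamb3 encodes the beta 3 chain, which pairs with alpha 3 in the laminin of epithelial anchoring structures. Lamb3 (ENSMUSG00000026639, chromosome 1, 193207699 to 193343878) was low, with 29, 33, 25 and 28 counts in the healthy libraries, or 2.63, 3.22, 2.11 and 2.43 CPM. At acute 24 h it had 1.16, 0.955 and 0.790 CPM, all below healthy. At acute 72 h it had 3.19, 2.16, 3.01 and 3.79 CPM, overlapping healthy, and at acute 7 d 6.47, 8.61, 6.20 and 6.51 CPM, all above healthy. Lamb3 fell at acute 24 h (-1.41, SE 0.27, adjusted p 0.000241, edgeR) and was higher at acute 7 d (1.42, SE 0.22, adjusted p 6.91e-05, edgeR).

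In the chronic groups Lamb3 had 8.69, 7.55, 8.07 and 6.72 CPM at 24 h, 17.5, 14.9, 13.9 and 8.07 CPM at 72 h and 10.5, 8.68, 11.7 and 9.55 CPM at 14 d. All 12 chronic libraries lay above all healthy ones. The log2 fold change against healthy was 1.58 (SE 0.23, adjusted p 1.06e-05, edgeR) at 24 h, 2.38 (SE 0.23, adjusted p 1.96e-07, edgeR) at 72 h and 1.96 (SE 0.23, adjusted p 9.72e-06, edgeR) at 14 d. Chronic 14 d and healthy differed in depth class as well as in treatment, and with depth class as a term the 14 d value was 1.61 (adjusted p 0.00284, edgeR). The calls of Lamb3 held when any 1 library was left out.

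Summed marker levels of some other cell types moved as well. The summed level of 8 cholangiocyte markers was 56.7 to 107 CPM in healthy, 88.0 to 105 CPM in acute 24 h, 132 to 183 CPM in acute 72 h, 763 to 4799 CPM in acute 7 d, 564 to 1299.8 CPM in chronic 24 h, 258 to 846 CPM in chronic 72 h and 209 to 373 CPM in chronic 14 d libraries. All 8 had counts in every group except Krt19, a keratin that defines these cells, which was at 0 in acute 72 h. Most of that sum was Spp1 (osteopontin, also made by macrophages), at 66.2 CPM in healthy and 2881 CPM in acute 7 d, whereas Krt19 had group means of 0 to 3.45 CPM. Of the 8, 2 had a log2 fold change above 0 against healthy at acute 24 h and 2 at acute 72 h. At acute 7 d, chronic 24 h and chronic 72 h all 8 did, and 7 did at chronic 14 d. None was called at acute 24 h and 1, lower, at acute 72 h. At acute 7 d 1 was called higher (9.23% of all genes), as were 2 at each chronic time (4.55% to 11.2%). The summed level of 10 markers of mesothelial cells and portal fibroblasts was 127 to 188 CPM in healthy, 81.7 to 99.7 CPM in acute 24 h, 214 to 502 CPM in acute 72 h, 474 to 578 CPM in acute 7 d, 394 to 459 CPM in chronic 24 h, 452 to 714 CPM in chronic 72 h and 197 to 329.9 CPM in chronic 14 d libraries, with Msln at 0 in acute 24 h and acute 72 h. Of the 9 tested of this list, 1 was higher and 3 lower at acute 24 h (9.41% and 12.5% of all genes). At acute 72 h 3 were higher (8.23%) and at acute 7 d 4 (9.23%). The chronic groups had 4 higher at 24 h (11.2%), 5 at 72 h (7.88%) and 3 at 14 d (4.55%). None was lower in any group but acute 24 h. The part of the cells of either list in the level of Lamb3 was not tested.

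Lamc1 encodes gamma 1, the gamma chain of nearly all laminins and the chain that nidogen binds. Lamc1 (ENSMUSG00000026478, chromosome 1, 153218922 to 153332786) had 502, 502, 601 and 432 CPM in healthy and 271, 212, 387 and 178 CPM in chronic 72 h libraries, all of the latter below all of the former. The difference fell just short of 2-fold (-0.96, SE 0.25, adjusted p 0.0091, edgeR), and Lamc1 was called without chronic 72 h replicate 3 (-1.21) or healthy replicate 4 (-1.03). At acute 24 h the values of Lamc1 (341, 260.1 and 374 CPM) also lay below all healthy ones, with an adjusted p of 0.0746 (log2 fold change -0.65, edgeR). Acute 72 h libraries (537, 395, 581 and 519.9 CPM) lay around the healthy level (-0.00, SE 0.25, adjusted p 1, edgeR). At chronic 24 h, Lamc1 had 354, 305, 533 and 504 CPM, with the lower pair in the libraries of lower depth.

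Nid1 encodes nidogen 1, the more abundant nidogen of most basement membranes. Nid1 (ENSMUSG00000005397, chromosome 13, 13437551 to 13512269) was not called in any of the 9 comparisons. It had 1065, 980.2, 1164 and 1182 CPM in healthy and 1116, 1016, 1358 and 1293 CPM in chronic 24 h libraries. The chronic 14 d libraries spread most, at 279, 564, 940.3 and 1127 CPM, from far below to within the healthy range. Against chronic 24 h their log2 fold change was -0.72 (SE 0.27, adjusted p 0.0585, edgeR), and -1.01 (adjusted p 0.0113, edgeR) without chronic 14 d replicate 4. Nid1 shares 143 exon bases with Gm48682 on the opposite strand.

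Nid2 encodes nidogen 2, a second nidogen found mainly in vessel walls. Nid2 (ENSMUSG00000021806, chromosome 14, 19751265 to 19811787) had 192, 225, 246 and 190.2 CPM in healthy libraries. It had 205, 136 and 180.3 CPM at acute 24 h, 257, 227, 475 and 488 CPM at acute 72 h and 334, 438, 366 and 272 CPM at acute 7 d. Every acute 7 d library lay above the healthy range, and at acute 72 h replicates 3 and 4 lay far above it while replicates 1 and 2 lay close to it. Neither difference from healthy passed 2-fold, with log2 fold changes of 0.76 (SE 0.23, adjusted p 0.019, edgeR) and 0.72 (SE 0.23, adjusted p 0.0242, edgeR).

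The chronic groups of Nid2 overlapped healthy, with means of 208 ± 19.0, 206 ± 41.6 and 191 ± 43.4 CPM (SD, n = 4 each) at 24 h, 72 h and 14 d. Per kb of exon, the ratio of Nid1 to Nid2 was 3.88 ± 0.623 (SD, n = 4) in healthy, 4.35 ± 0.495 in acute 24 h, 2.21 ± 0.767 in acute 72 h and 2.19 ± 0.247 in acute 7 d libraries. Nid2 shares 437 exon bases with Rtraf on the opposite strand, so reads of this pair cannot be told apart without strand.

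Chronic 14 d was compared with chronic 24 h to see what recovery changed. Of the 9 genes, 1 was called, where 12.8% of all genes were (6.65% higher and 6.11% lower). Lama5 fell (-1.14, SE 0.35, adjusted p 0.0216, edgeR), and no library of the groups overlapped. The call was lost with depth class as a term (-0.65, adjusted p 0.216), with scaling by library size alone (-0.97, adjusted p 0.0483, under 2-fold), and without chronic 14 d replicate 4 (-0.995), chronic 24 h replicate 3 (-0.97) or chronic 24 h replicate 4 (-1.02). Lamb3 was not called (0.38, SE 0.22, adjusted p 0.221, edgeR), and all 8 libraries of both groups stayed above healthy.

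Acute 72 h was compared with acute 24 h to follow the days after a first injury. Of the 9 genes, 3 were higher and none lower, where 15% of all genes were called (11.2% higher and 3.76% lower). Lama4 rose (3.42, SE 0.73, adjusted p 0.00137, edgeR), as did Lamb3 (1.64, SE 0.27, adjusted p 8.52e-05, edgeR) and Nid2 (1.06, SE 0.25, adjusted p 0.00336, edgeR). The libraries of these groups did not overlap for 5 of the 9 genes, namely these 3 and also Lama5 and Lamc1, which were not called. The share of all genes without overlap was not computed. Nid2 stood close to the 2-fold limit and fell short of it without acute 24 h replicate 2 (0.91), acute 72 h replicate 3 (0.90) or acute 72 h replicate 4 (0.88). The summed endothelial markers stood at a mean of 111 CPM at acute 24 h and 110.3 CPM at acute 72 h, while those of mesothelial cells and portal fibroblasts went from 89.5 to 357 CPM. The part of the latter in the rise of these 3 genes was not tested.

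Chronic 24 h was compared with acute 24 h to set the last of many injections beside a single one at a matched time. Of the 9 genes, 2 were higher and none lower, where 13.9% of all genes were called (10.9% higher and 3.05% lower). Lamb3 was higher (2.99, SE 0.27, adjusted p 1.24e-07, edgeR) and so was Lama4 (3.03, SE 0.72, adjusted p 0.00394, edgeR). The libraries did not overlap for these genes, nor for Lamb2, which was not called (0.66, SE 0.27, adjusted p 0.0813, edgeR). With only these groups fitted, Lama4 had an adjusted p of 0.057. Lama5 was raised in both groups against healthy, and the difference between them was not called (-0.30, SE 0.37, adjusted p 0.6, edgeR).

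The step from 24 h to 72 h was then set side by side for both courses, with a test of the difference in edgeR. Lama4 stepped by 3.42 (SE 0.73) on the log2 scale in the acute and by -1.19 (SE 0.59) in the chronic course, a difference of -4.60 (SE 0.93, adjusted p 0.00219, edgeR). The difference was -1.34 (SE 0.38, adjusted p 0.0222, edgeR) for Lamc1 and -1.08 (SE 0.34, adjusted p 0.0417, edgeR) for Nid2. That of Lamc1 passed 0.05 except without acute 24 h replicate 2 (adjusted p 0.0785), and that of Nid2 did not pass in 12 of 19 alternatives, among them libraries of higher depth alone (adjusted p 0.146). Of the 9 genes 3 passed this test, as did 10.8% of all genes. Lama5 had a difference of -1.53 (adjusted p 0.0564, edgeR), and Lamb1 one of 0.01 (SE 0.28), its step being near 0 in both courses.

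**Figure D4:**
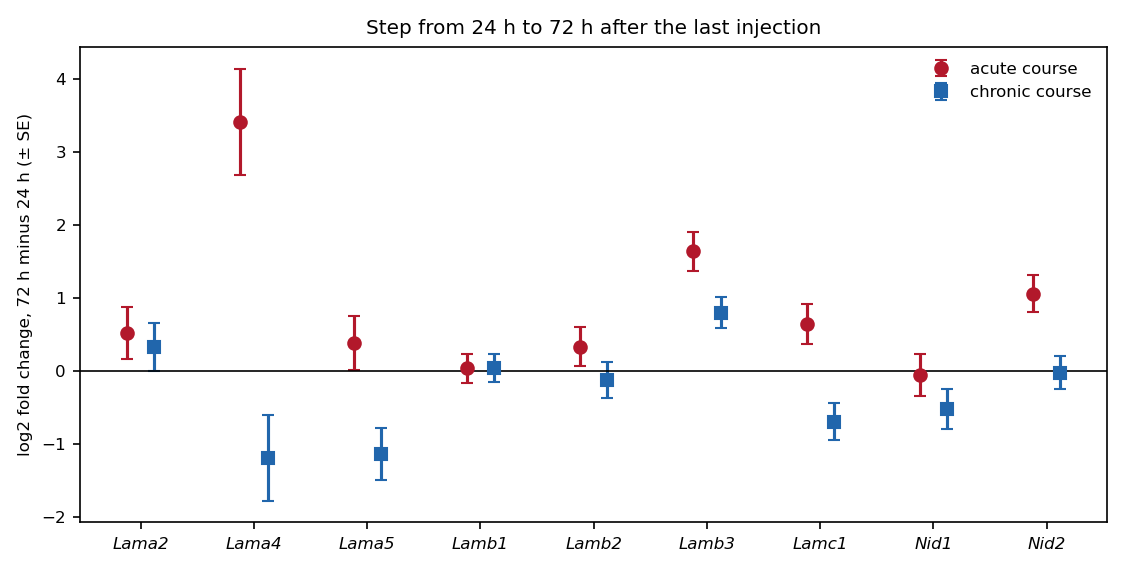
Log2 fold change from 24 h to 72 h after the last injection (vertical axis, ± SE from edgeR) of the 9 genes tested, in the acute course (red circles) and the chronic course (blue squares). Lama4 steps up by 3.42 in the acute course and has -1.19 in the chronic one, and Lamb1 lies near 0 in both.

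Collagen IV forms the other network of the basement membrane, and of its genes Col4a1 and Col4a2 were called higher than healthy at 24 h in both courses. Of 20 partner genes of the basement membrane, 19 were tested, and at chronic 24 h 6 were higher and 1 lower than healthy, where 11.2% of all genes were higher and 8.11% lower. Col4a1 had 919.5 CPM in healthy and 3297 CPM in chronic 24 h libraries on average (1.84, SE 0.25, adjusted p 4.90e-06, edgeR), and Col4a2 had 758 and 2013 CPM (1.41, SE 0.20, adjusted p 7.25e-06, edgeR). Both encode the common chains of collagen IV. Col15a1, a collagen that lies between basement membrane and matrix, went from 1.89 to 139.8 CPM (6.20, SE 0.43, adjusted p 5.03e-10, edgeR). The 1 lower was Ntn1, encoding netrin 1, a guidance protein with laminin-like domains (-1.74, SE 0.20, adjusted p 6.41e-07, edgeR). The median log2 fold change of the 19 was 0.45, where that of all genes was -0.03. Summed markers of mesothelial cells and portal fibroblasts had means of 155 CPM in healthy and 435 CPM in chronic 24 h libraries. The part of these cells in the levels of the partner genes was not tested.

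At acute 24 h, 3 partners were higher and 6 lower, where 9.41% of all genes were higher and 12.5% lower. Col4a1 (1.95, SE 0.26, adjusted p 5.15e-06, edgeR) and Col4a2 (1.56, SE 0.21, adjusted p 4.71e-06, edgeR) were higher here too, beside lower values of Smoc1, a calcium-binding matrix protein (-2.83, SE 0.56, adjusted p 0.000436, edgeR), and Col18a1, the source of endostatin (-1.98, SE 0.43, adjusted p 0.00105, edgeR). The counts higher and lower were 4 and 1 at acute 72 h (8.23% and 4.33% of all genes). They were 6 and 2 at acute 7 d (9.23% and 5.64%) and 8 and 1 at chronic 72 h (7.88% and 4.2%). At chronic 14 d they were 6 and 0 (4.55% and 1.17%). Fbln2 (fibulin 2), Col15a1 and Col4a5 were higher than healthy in all of these 4 groups, Col4a5 by a log2 fold change of 3.98 to 5.89 from a healthy mean of 0.996 CPM. The part of other cell types in these levels was not tested.

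From chronic 24 h to chronic 14 d, 7 partners fell and 5 rose, where 6.11% of all genes fell and 6.65% rose. Col4a1 fell to 522 CPM (-2.66, SE 0.26, adjusted p 1.92e-07, edgeR), Col4a2 to 491 CPM (-2.03, SE 0.20, adjusted p 2.48e-07, edgeR) and Hspg2, encoding perlecan, to 47.3 CPM (-1.24, SE 0.33, adjusted p 0.0092, edgeR). Over the same step Lamb1 (0.12) and Lamc1 (-0.22) had log2 fold changes with adjusted p of 0.717 and 0.585 (edgeR). From acute 24 h to acute 72 h, 7 partners rose and 1, Col4a1, fell (-1.004, SE 0.26, adjusted p 0.0059, edgeR). Of all genes, 11.2% rose and 3.76% fell over that step. In chronic against acute 24 h, 8 partners were higher and 0 lower, where 10.9% of all genes were higher and 3.05% lower. There Col4a1 (-0.11, SE 0.26, adjusted p 0.816, edgeR) and Col4a2 (-0.15, SE 0.21, adjusted p 0.649, edgeR) were not called.

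Of 11 laminin receptor genes, all tested, 0 to 2 were called higher and 0 to 2 lower in each comparison. Over the 9 comparisons, 4.55% to 11.2% of all genes were higher and 1.17% to 12.5% lower. On so few genes these counts are no result about the receptors as a set. Itga2, the alpha 2 subunit of a collagen and laminin integrin, was higher at chronic 24 h, acute 72 h and acute 7 d, from a healthy mean of 0.151 CPM to at most 3.25 CPM at acute 72 h (4.30, SE 0.98, adjusted p 0.00253, edgeR). Rpsa, encoding a ribosomal protein also known as the laminin receptor, was higher at acute 24 h (2.04, SE 0.40, adjusted p 0.000368, edgeR), acute 72 h and chronic 24 h, but it has many near-identical pseudogenes and its counts are uncertain. Itgb1, the integrin beta 1 subunit shared by the main laminin integrins, had 1311 CPM in healthy libraries and was not called in any comparison, with adjusted p of 0.0331 at chronic 72 h (log2 fold change -0.79, edgeR). Dag1, encoding dystroglycan, was not called against healthy (-0.89, SE 0.23, adjusted p 0.00439 at acute 24 h, edgeR, under 2-fold) and rose from acute 24 h to acute 72 h (1.05, SE 0.23, adjusted p 0.0018, edgeR). Bcam, a receptor for laminin alpha 5, was higher at acute 24 h, at 42.5 CPM where healthy had 13.7 (1.63, SE 0.27, adjusted p 5.99e-05, edgeR), and was lower at acute 72 h than at acute 24 h (-1.14, adjusted p 0.0029, edgeR). Itga6, the alpha subunit of an epithelial laminin integrin, was very low, at 1.42 CPM in healthy and 6.67 CPM in acute 7 d libraries (2.22, SE 0.64, adjusted p 0.0136, edgeR).

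The sugar chains by which dystroglycan holds laminin are built by a set of enzymes, of which 12 genes were tested. At acute 24 h 2 of the 12 were lower and none higher, a share near that of all genes (12.5% lower). These were Pomgnt2 (-1.20, SE 0.17, adjusted p 9.07e-06, edgeR), which extends the O-mannose of dystroglycan, and Ispd (-1.19, SE 0.19, adjusted p 2.90e-05, edgeR), which makes its ribitol donor. Ispd was also the 1 gene called at chronic 24 h (-1.07, SE 0.17, adjusted p 3.70e-05, edgeR), where 8.11% of all genes were lower. None was called at acute 72 h, acute 7 d, chronic 72 h or chronic 14 d against healthy.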

How the data were processed

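Sorted HSCs gave 27 bulk RNA libraries. By the account of the study and the labels, single-end reads went through FastQC for quality and trimming, were mapped by STAR against GRCm38.p6 and were assembled by StringTie, and DESeq2 served for normalization and testing. The file holds gene-level raw counts as deposited, in whole numbers and unscaled. How the assembly became counts, tool versions, strand and annotation release are not given in the sources used here. All value columns matched a library, leaving 0 unmatched, and none held comparisons by the authors. Of 53379 genes, 53274 were found in GENCODE M21, which gave symbols, positions and exon lengths (the union of all exons, so a level per kb depends on the annotated isoforms).

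Genes kept by filterByExpr by group (18758) got scaling factors from TMM, the trimmed mean of M values. One edgeR 4.0.16 quasi-likelihood model (robust, one mean for each group; R 4.3.3, limma 3.58.1) covered the 27 libraries and gave the 9 comparisons and the test of the difference of steps. CPM use TMM-scaled totals, and log2 CPM a prior count of 2. SE is the log2 fold change over the square root of F. Totals of 6.31 M to 13.1 M limit the precision of genes with few counts. P-values were adjusted over all genes tested and rest on the spread between these libraries.

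The members and lists were chosen with earlier results of these data known. All 10 genes were named in every comparison. Of the other lists, up to 3 called genes with the highest and 2 with the lowest change could be named in each comparison, beside Col4a1, Col4a2, Hspg2, Itga6, Itgb1 and Dag1, and the 2 genes most correlated with each member. Lama1 and Lamc3 were named from a list of other chains, of which 1 result is not reported here. Alternatives were DESeq2 1.42.0, other scalings, filters and thresholds, the replicate block, depth class, fits of only the groups compared, and each library left out. They were read out for the 10 genes alone, so values of other genes named rest on the model of all libraries. Those on the steps were chosen after seeing the data. The procedure was tested on simulated counts. Plots used matplotlib 3.10.9 and pandas 2.3.3 under Python 3.11.15.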

Additional observations from a re-analysis of the deposited data

Results flagged for a closer look

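In acute 72 h, replicate 2 lay apart from the other libraries for Lama4, at 2.50 log2 CPM where the other 3 had 3.29 to 3.39. In acute 7 d, replicate 2 lay apart for Lamb3, at 3.14 log2 CPM where the other 3 had 2.68 to 2.74. These were 2 of 54 sets of libraries tested by Dixon's test, and chance alone gives about 1 in 20.

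For 3 genes the step from 24 h to 72 h after the last injection differed between the chronic and the acute course (edgeR). The difference, chronic minus acute on the log2 scale, was -4.60 for Lama4, -1.34 for Lamc1 and -1.08 for Nid2. Lamc1 stepped by 0.64 (SE 0.28) in the acute and -0.69 (SE 0.25) in the chronic course, with adjusted p of 0.0978 and 0.0663 for the steps themselves. Nid2 stepped by 1.06 (SE 0.25) in the acute and -0.02 (SE 0.23) in the chronic course. The step of Lama4 rests on 18, 10 and 0 counts in the acute 24 h libraries.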

How the results depend on the processing

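Counts of called laminin and nidogen genes moved by over 1.5 times under few alternatives. Without a minimum fold, 5 were called at acute 24 h and 3 each at acute 72 h, acute 7 d and chronic 72 h against healthy (edgeR). The share of all genes called without a minimum fold was not computed, so these counts are no result about the group of genes. With depth class as a term, and with scaling by library size alone, 0 were called in chronic 14 d against chronic 24 h (1 in the model of all libraries, by edgeR). Fits of only the groups compared called 1 at chronic 24 h against healthy and 1 against acute 24 h. With a library left out, the count ran from 1 to 2 at acute 72 h (2 without healthy replicate 3), 1 to 2 at chronic 72 h (2 without chronic 72 h replicate 3 or healthy replicate 4) and 0 to 1 in chronic 14 d against chronic 24 h (0 without chronic 24 h replicate 3 or 4; without chronic 14 d replicate 4, Lama5 was not called and Nid1 was). The fit with a replicate block called 3 genes at acute 24 h, 1 at acute 72 h, 1 at acute 7 d, 2 at chronic 24 h, 1 at chronic 72 h and 1 at chronic 14 d, 1 in chronic 14 d against chronic 24 h, 3 in acute 72 h against acute 24 h and 2 in chronic against acute 24 h, and changed no call of these genes. Same-numbered libraries did not deviate together in every pair of any comparison (r from -0.172 to 0.149), so the replicate numbers were not taken to pair them. The other 153 alternative values of counts stayed within 1.5 times.

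Of the values of single genes, 1467 kept their direction and side of the threshold, 28 lost the call, 13 gained it and 48, none of them called, turned sign. With library size alone, which moved the median of all genes by up to 0.18 on the log2 scale, these were Lama2 (0.023) and Lamc1 (0.11) at acute 72 h, Lamb2 (0.012) and Nid2 (0.022) at chronic 14 d, Nid2 (0.071) at chronic 72 h, Lama4 (0.033), Lamb2 (0.076) and Nid2 (0.051) in chronic 14 d against chronic 24 h, Nid1 (0.061) in acute 72 h against acute 24 h, and Lamb1 (0.0036) in chronic against acute 24 h. With depth class as a term they were Nid2 at chronic 24 h (0.018) and 72 h (0.0014), Lama4 (0.087) and Lamc1 (0.031) in chronic 14 d against chronic 24 h, and Lama5 (0.045) and Lamb1 (0.049) in chronic against acute 24 h. With libraries of higher depth alone they were Lamb2 (0.0061), Lamc1 (0.025) and Nid2 (0.042) at chronic 24 h, and Lama5 (0.055) and Lamb1 (0.16) in chronic against acute 24 h, and without a filter Lamb1 (-0.032) in acute 72 h against acute 24 h.

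With a library left out, Lama2 ran from -0.012 to 0.54 at acute 7 d, -0.36 to 0.19 at acute 72 h and -0.16 to 0.40 at chronic 24 h. Lama4 ran from -0.71 to 0.38 and Lama5 from -0.19 to 0.57 at chronic 72 h, and Lama4 from -0.40 to 0.039 in chronic 14 d against chronic 24 h. Lamb1 ran from -0.090 to 0.15 in acute 72 h against acute 24 h and from -0.14 to 0.10 in chronic against acute 24 h. Lamb2 ran from -0.30 to 0.042 at acute 7 d, -0.22 to 0.13 at chronic 24 h, -0.39 to 0.030 at chronic 72 h, -0.31 to 0.032 at chronic 14 d and -0.15 to 0.0059 in chronic 14 d against chronic 24 h. Lamc1 ran from -0.074 to 0.10 at acute 72 h, Nid1 from -0.17 to 0.047 in acute 72 h against acute 24 h, and Nid2 from -0.088 to 0.040 at chronic 24 h, -0.18 to 0.044 at chronic 72 h and -0.22 to 0.0064 in chronic 14 d against chronic 24 h. The cause was not tested.

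The healthy levels per kb of 5 genes moved when the longest transcript replaced the union of exons, to 2.76 for Lama2, 0.640 for Lama4, 99.6 for Lamb1, 0.533 for Lamb3 and 180.2 for Nid1, which puts Lamb1 above Lamc1. Scaling by library size alone moved the share of higher among all called genes from 79.6% to 91.2% at chronic 14 d and from 52.1% to 67.2% in chronic 14 d against chronic 24 h. Chronic 14 d held no library of higher depth, so that alternative could not be run for it.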

Other observations

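Lamc3, which encodes the gamma 3 chain and is not among the 10 genes, had 1.45, 6.14, 8.51 and 2.25 CPM in healthy and 0.890, 0.260 and 0.878 CPM in acute 24 h libraries and was lower there (-2.74, SE 0.81, adjusted p 0.0112, edgeR), as it was at acute 72 h (-2.48, SE 0.71, adjusted p 0.0143, edgeR).

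Over the 27 libraries, the genes whose log2 CPM followed most closely a laminin or nidogen gene that itself averaged 3 log2 CPM or more included Ankrd50 (Pearson r 0.904) and Masp1 (0.851) for Lamb1, Pgf (0.860) and Smad7 (0.851) for Lama5, Cpd (0.908) and Map3k20 (0.879) for Lamc1, and Grb10 (0.911) and Bhlhb9 (0.844) for Nid2. Among the 10 genes themselves, Lama2 and Lamb3 had r of 0.66, Lamb1 and Lamc1 0.62, and Lamc1 and Nid1 0.62. These values describe 27 libraries in 7 groups that share treatment and depth classes, and no test was made.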
